A study of Spodoptera frugiperda with 12 samples.

Results

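The loci described here are stretches of the fall armyworm (*Spodoptera frugiperda*) genome that carried N6-methyladenosine (m6A) peaks in embryos aged 24 h and also in embryos aged 2 h, counted from egg laying, with at least 2 times as many peaks at 24 h. Peaks of 1 strand less than 2000 bases apart in the 6 pooled peak lists were joined into 17120 loci, of which 8945 had a peak in every list and are called shared. A shared locus was taken as gaining when its 3 lists of 24 h held at least 9 peaks in total and at least 2 times the total of its 3 lists of 2 h. This gave 257 gaining loci, 2.87% of the shared loci and 4.56% of the 5631 shared loci with at least 9 peaks at 24 h. The opposite rule, with a 2 h total of at least 9 and at least 2 times the 24 h total, gave 237 loci (2.65%). The numbers of peaks at 24 h and 2 h chose the loci, so these numbers are a description and were not tested.

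The series holds 12 samples of whole *S. frugiperda* embryos in 4 groups of 3: m6A capture at 24 h (E24h), m6A capture at 2 h (E2h), and an uncaptured input for each time. All embryos came from a laboratory colony, with no treatment and no genetic change named in the labels. Poly(A)-selected RNA was fragmented, and part of it was captured with an antibody against m6A. Each of the 6 captured samples has its own deposited list of peaks, the stretches called as enriched, with 56907, 58161 and 56679 peaks in the E24h lists and 53420, 55116 and 51157 in the E2h lists. The input samples were not analysed here. Read depth is unknown, because a peak comes with a position and a score but no read count. In whole embryos without input, more methylation per transcript, more RNA per cell and more cells with the transcript cannot be told apart. The labels name no separate egg batches for the 3 samples of each age, so the spread between lists may be technical.

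m6A is a methyl mark placed on adenosines of messenger RNA by a methyltransferase complex around METTL3 and METTL14, and read by proteins with a YTH domain, which can change how a transcript is spliced, translated or degraded. In mammals the mark gathers around stop codons and in long exons, and in *Drosophila* many sites lie near the 5' end of transcripts. Early insect embryos run on RNA stored in the egg by the mother, and later embryos replace it with RNA from their own genome. Positions are counted from 1 on the sequences named in the lists. The sources used here do not name the genome build, so genes were not named, and whether a position is exonic or intronic was not analysed. A locus stands for a stretch of clustered peaks, which can be part of a gene or span neighbouring genes.

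Gaining loci typically held 6 peaks in a 24 h list and 2 in a 2 h list. The number per locus ran from 1 to 40 in E24h-1, from 1 to 46 in E24h-2 and from 1 to 43 in E24h-3, with a median of 6 in each. It ran from 1 to 15 in E2h-1, from 1 to 26 in E2h-2 and from 1 to 15 in E2h-3, with a median of 2 in each. Together the gaining loci held 1931, 1958 and 1903 peaks in the E24h lists, 3.37% ± 0.0186 of a list (SD, n = 3), and 686, 759 and 630 peaks in the E2h lists, 1.30% ± 0.0737 of a list (SD, n = 3). Peaks of at most 1000 bases covered 199 ± 7.30 kb of these loci at 24 h and 69.1 ± 7.90 kb at 2 h (SD, n = 3 lists). The covered length thus differed in the same direction as the number of peaks, as did the number of separate regions of overlapping peaks, 1809 ± 39.0 per list at 24 h and 654 ± 61.7 per list at 2 h (SD, n = 3 lists). Counting such regions in place of peaks left 241 of the 257 loci at a ratio of at least 2. Covered length and regions are built from the same peaks that chose the loci, so they are no separate measure of the difference.

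The size of the difference varied widely among the loci. The ratio of the 24 h total to the 2 h total had a median of 2.60 and reached 9.50, while over all shared loci the median was 1. It was under 3 in 163 loci, from 3 to under 5 in 68, and at least 5 in 26. Every 24 h list held more peaks than every 2 h list in 202 of the 257 loci (78.6%). The same separation was found in 4.90% of all shared loci, and the opposite one, every 24 h list below every 2 h list, in 7.72%. Nothing is read from these shares because the rule used the same numbers. In the other 55 loci the lists of both times tied or overlapped, and in 39 loci the richest 24 h list had over 2 times the peaks of the poorest. A single peak in each of the 2 h lists was found in 25 loci.

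The edge of the rule cut through a continuous spread. A ratio of exactly 2 was held by 33 of the gaining loci, with a median 24 h total of 12. Just outside, 108 shared loci with at least 9 peaks at 24 h had a ratio of 1.8 to under 2, with a median 24 h total of 13. A 24 h total of exactly 9 was held by 14 gaining loci, and 18 further loci had a ratio of at least 2 with a total of 8. The 24 h lists as a whole were 1.08 times as long as the 2 h lists, and scaling the 24 h totals to equal list length left 198 loci.

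**Figure D1:**
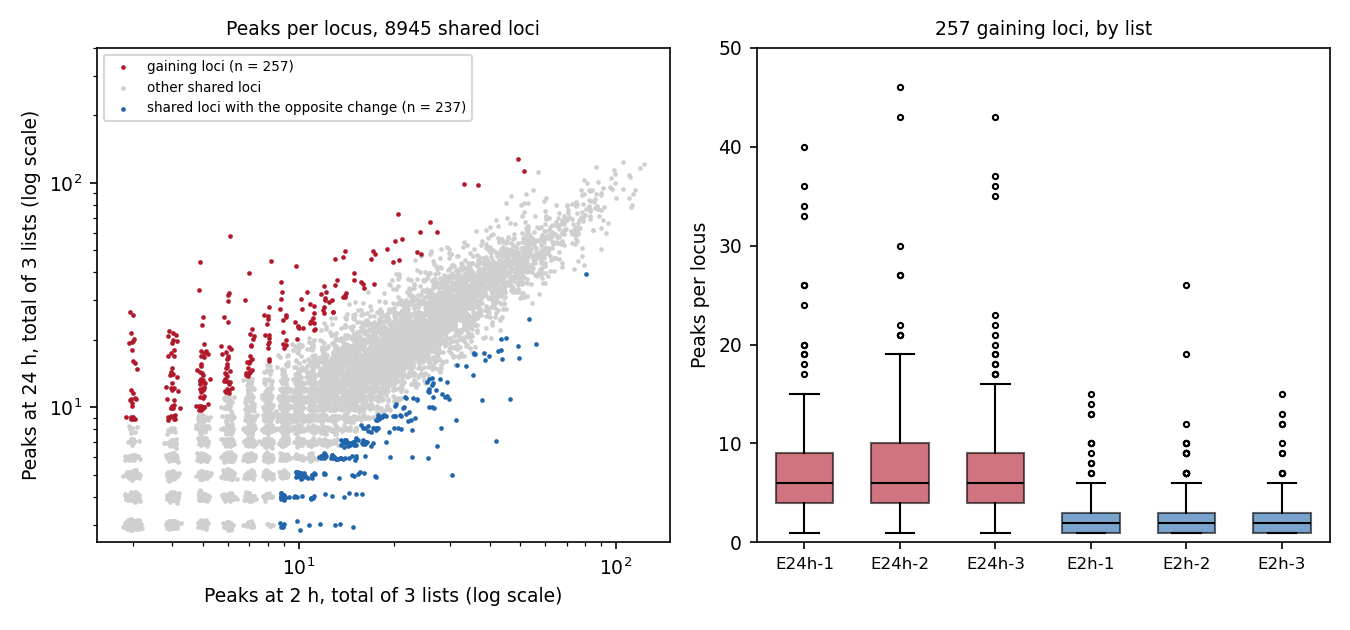
Left, peaks per shared locus at 24 h against 2 h, each as the total of 3 lists on log axes with a small random shift to separate equal values; gaining loci are red, loci with the opposite change blue and the other shared loci grey. Right, peaks per locus in the 257 gaining loci for each list (line, median; box, quartiles; whiskers, up to 1.5 times the box; circles, single loci), with a median of 6 in the 24 h lists and 2 in the 2 h lists.

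The difference was also read in lists whose peak numbers were left out of the choice. Loci were chosen by the same ratio from 2 lists per time (a peak in all 4 lists, at least 6 peaks at 24 h) and read in the list of each time left out, for all 9 pairs of left-out lists. Between 352 and 447 loci were chosen, and in 43.5% to 69.0% of them the left-out 24 h list had at least 2 times the peaks of the left-out 2 h list. In 17 to 71 of the chosen loci the left-out 2 h list had no peak, so any 24 h peak there is at least 2 times as many. The pairs with E2h-3 left out had the most such loci, 63, 55 and 71. In the other loci compared, with at least 6 peaks in the 2 chosen 24 h lists, the share with at least 2 times the peaks was 4.27% to 8.36%. The left-out 24 h list held 1.71 to 2.64 times the peaks of the left-out 2 h list over the chosen loci, and 0.893 to 0.984 times over the others. The 3 highest ratios were those with E2h-3 left out, which is the shortest list. Locus borders were drawn from all 6 lists, so the left-out lists still helped to draw the loci. The 9 pairs share lists, and the lists of 1 age may be technical repeats. No test was made, and these values do not replicate a difference between ages.

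The locus with the highest ratio lay on the plus strand of NC_049721.1 from 4782424 to 4792372. It had 26, 15 and 16 peaks in the E24h lists, and 2, 1 and 3 in the E2h lists, a ratio of 9.50. The 24 h lists did not overlap the 2 h lists, and E24h-1 was well above the other 24 h lists. Its strongest 24 h peak stood at within-list score percentiles of 95.6, 98.4 and 98.2 in the E24h lists, where values near 100 are the strongest peaks of a list, and its strongest 2 h peak at 11.9, 11.2 and 23.0 in the E2h lists. The score comes from the authors' lists and was used here only to rank the peaks of a list. The locus spanned 9949 bases. Of its 6 peaks at 2 h, 5 lay at least 8949 bases from the 5' end, and the remaining one, in E2h-3, began 5774 bases from it. Of the 57 peaks at 24 h, 49 overlapped no 2 h peak, and 20 of these lay in the stretch 5' of all 2 h peaks.

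Of the other 5 loci with the highest ratios, 3 had a plain form of this layout, with 1 constant stretch of peaks at or near the 3' end and nearly all other peaks 5' of it. On the plus strand of NC_049714.1 from 16900113 to 16904696, the E24h lists had 11, 10 and 6 peaks and each E2h list had 1, a ratio of 9. The 2 h peaks all fell within the last 325 bases, from 16904372 to 16904696, a stretch that also held a peak in each 24 h list. This 3' peak was among the strong ones already at 2 h (percentiles 94.6, 95 and 93.3), and the strongest peak at 24 h stood at 96.4, 96.6 and 96.2. The other 24 peaks of the 24 h lists were spread over the 4259 bases 5' of it. The same form was seen on NC_049716.1, plus strand, from 16090124 to 16095660, with 10, 8 and 8 peaks in the E24h lists, and 1 in each E2h list. Its 2 h peaks occupied the same 150 bases at the 3' end in every list, and 22 of the 26 peaks at 24 h lay in the 5387 bases 5' of them. The sixth locus by ratio, on the minus strand of NC_049714.1 from 8159505 to 8167869, had 5, 7 and 8 peaks at 24 h and 1 in each 2 h list, and 16 of its 20 peaks at 24 h lay 5' of the 2 h peak and 1 lay 3' of it.

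The remaining loci of the highest ratios were added to at other places. In the locus on NC_049716.1, plus strand, from 15376169 to 15401425, the E24h lists had 11, 17 and 15 peaks, and the E2h lists 1, 2 and 2. Its strongest 2 h peaks were weak, at percentiles 14.2, 7.1 and 1.9, and 29 of the 43 peaks at 24 h lay 3' of all of them. A single E24h-2 peak of 16860 bases, at percentile 18.3, held this locus together. No other peak lay between 375 and 17235 bases from its 5' end. The minus-strand locus of NC_049733.1 from 8119034 to 8140796 had 8, 7 and 7 peaks at 24 h and 1 in each 2 h list, and 17 of its 22 peaks at 24 h lay 3' of the 2 h peaks. In that last locus no stretch had a peak in all 3 lists of 24 h and in none of 2 h, and its 2 h peaks lay at a different place in each list.

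**Figure D2:**
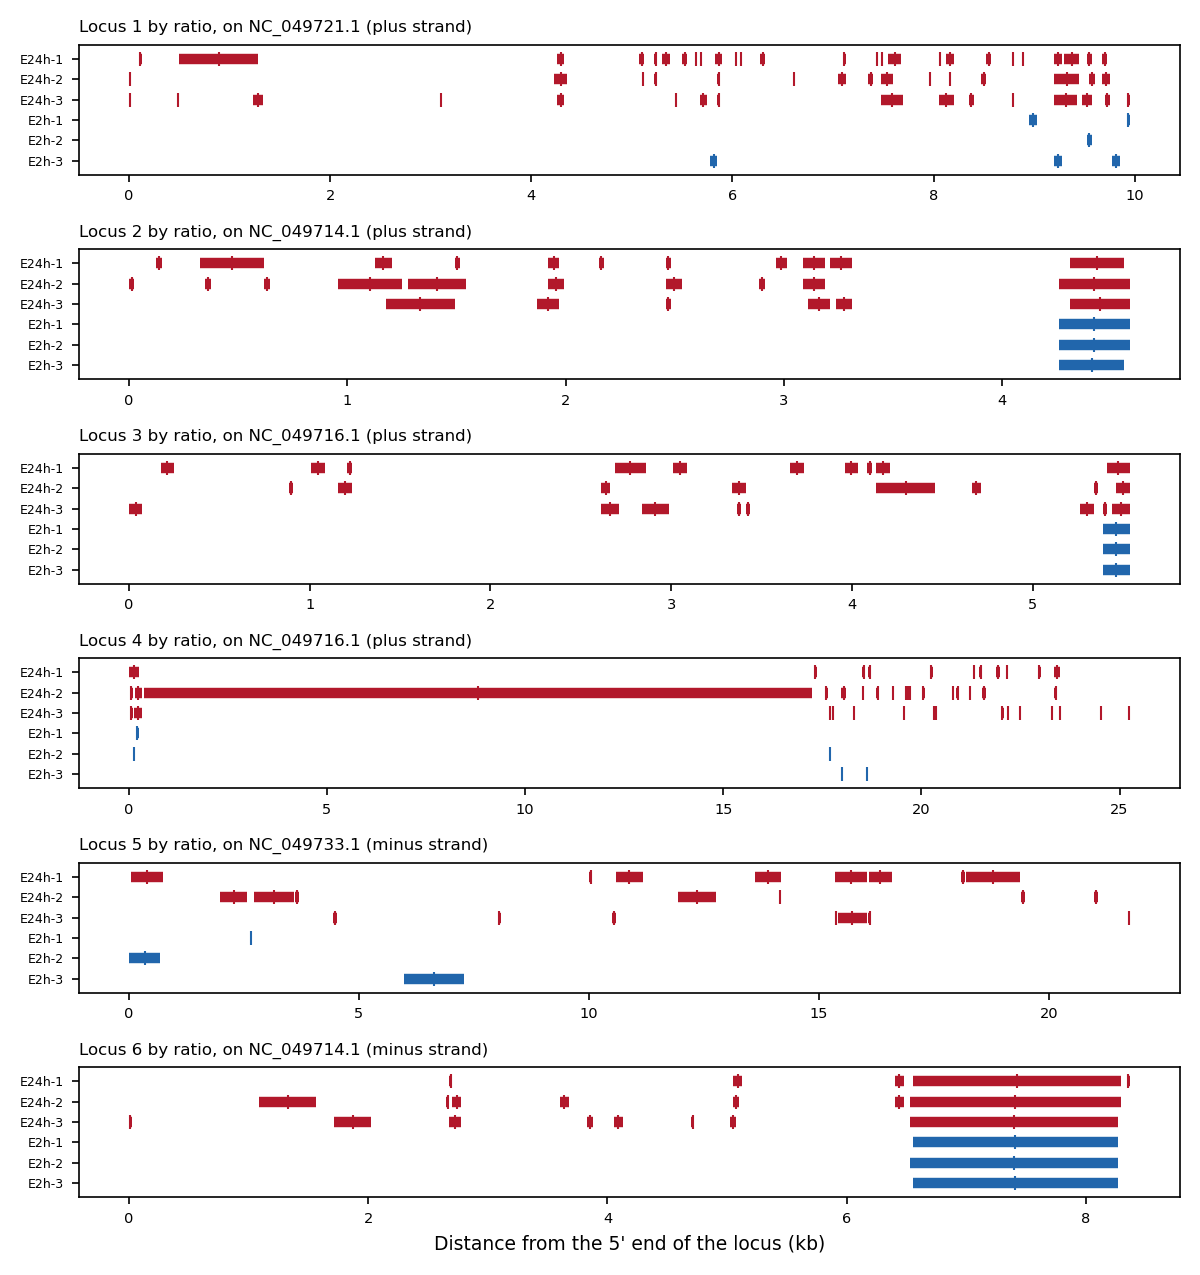
Peaks of the 6 gaining loci with the highest ratio of 24 h to 2 h totals, by list (24 h red, 2 h blue), against distance from the 5' end of the locus in kb; bars are peak spans and ticks mark their midpoints. Loci 2, 3 and 6 have a single 2 h peak in each list near the 3' end with 24 h peaks 5' of it, while loci 4 and 5 have 24 h peaks 3' of their 2 h peaks.

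Of the 6 loci with the largest differences in number of peaks, 5 were long, spanning at least 21432 bases, and held at least 6 peaks in every list. The sixth was the locus with the highest ratio, described above, which spanned 9949 bases and had few 2 h peaks. The largest difference was on the minus strand of NC_049714.1 from 5003108 to 5047938, with 40, 46 and 43 peaks in the E24h lists and 15, 19 and 15 in the E2h lists. Of its 129 peaks at 24 h, 78 overlapped no 2 h peak, and 76 of these lay between 2 h peaks. On the minus strand of NC_049713.1 from 15982415 to 16037134 the lists had 34, 27 and 37 peaks at 24 h, and 13, 9 and 12 at 2 h. There the 2 h peaks ended 42182 bases short of the 5' end of the locus, and 42 of the 68 peaks without a 2 h overlap lay in that 5' stretch. Its strongest peak differed little in rank, with percentiles of 94.5, 95.8 and 96.8 in the E24h lists and 94.0, 95.2 and 95.8 in the E2h lists.

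The other loci of this kind differed in where their peaks fell. The plus-strand locus of NC_049710.1 from 17871414 to 17899187 had 36, 43 and 35 peaks at 24 h, and 13, 26 and 12 at 2 h, with E2h-2 well above the other 2 h lists. All 68 of its peaks without a 2 h overlap lay between 2 h peaks. On the plus strand of NC_049717.1 from 14417362 to 14438793 there were 33, 30 and 36 peaks at 24 h, and 14, 10 and 13 at 2 h. This locus held 13 regions with a peak in all 3 lists of 24 h and none of 2 h, the most of any gaining locus, and the 8650 bases 5' of its 2 h peaks held 32 peaks of the 24 h lists. The plus-strand locus of NC_049726.1 from 9194938 to 9243329 had 26, 27 and 23 peaks at 24 h, and 6, 9 and 6 at 2 h. Its strongest peak stood at percentiles of 85.2, 90.6 and 85.1 in the E24h lists and 23.9, 33.6 and 21.9 in the E2h lists. Peaks of great genomic span lay in it at both times, the longest of 35941 bases at 24 h and 35791 bases at 2 h.

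Most of the 24 h peaks in gaining loci stood where no 2 h list had a peak. Of 5792 peaks in the 3 lists of 24 h, 3806 (65.7%) overlapped no 2 h peak by even 1 base and are called added. By list the share was 65.7%, 67.0% and 64.4%. In the other 5374 shared loci with at least 9 peaks at 24 h it was 21.3% ± 0.819 (SD, n = 3), and in the 541 of these with at most 9 peaks at 2 h it was 29.2% ± 0.869 (SD, n = 3). The comparison follows from the rule and was not tested. Only 88 of the 1986 overlapped peaks (4.43%) were covered by nothing but a 2 h span over 1000 bases. A single gaining locus had no added peak: on the plus strand of NC_049731.1 from 9421392 to 9432056 all 23 peaks at 24 h overlapped 2 h peaks, the longest of which spanned 7690 bases.

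The added peaks lay 5' of the 2 h peaks more often than 3' of them. Of the added peaks, 28.5% ± 0.807 (SD, n = 3) lay 5' of every 2 h peak of their locus, 57.4% ± 1.22 lay between 2 h peaks and 14.1% ± 0.443 lay 3' of every 2 h peak. The 5' share was 28.4%, 27.8% and 29.4% in the 3 lists of 24 h, and the 3' share 13.8%, 13.9% and 14.6%, so the lists did not overlap. The 5' stretches made up 21.7% of the joint span of the loci and the 3' stretches 15.9%. These joint shares weigh long loci most. By locus, the 5' stretch had a median of 500 bases, an upper quartile of 2317 and a maximum of 59982. For the 3' stretch these were 25, 558 and 144782 bases. Whether the length of the stretches accounts for the 5' and 3' shares of added peaks was not tested. Counted by loci, 94 (36.6%) had an added peak 5' of all 2 h peaks in each of the 3 lists of 24 h, 48 (18.7%) had one 3' of them in each, and 8 had both. Neither was found in 123 loci. An added peak 5' of all 2 h peaks in each 24 h list was found in 4.07% of the 541 other shared loci with at most 9 peaks at 2 h and in 2.77% of all 5374 other shared loci with at least 9 peaks at 24 h, and one 3' of them in 4.62% and 1.84%. In the 237 loci with the opposite change, 2 h peaks without a 24 h overlap lay 5' of all 24 h peaks in each 2 h list in 15.6% of loci and 3' of them in 19.0%, so the 3' share was about that of the gaining loci.

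As a difference between the 5' and 3' shares, the lean towards the 5' side was smaller or turned round in the other sets of loci. In the 541 other shared loci with at most 9 peaks at 2 h, 16.2% ± 1.01 of added peaks lay 5' of all 2 h peaks and 18.0% ± 0.672 lay 3' (SD, n = 3 each). Their 5' and 3' stretches made up 6.02% and 6.67% of their span. In the 237 loci with the opposite change, peaks of 2 h without a 24 h overlap lay 5' of all 24 h peaks in 14.5% ± 1.17 and 3' in 14.9% ± 1.5 (SD, n = 3 each). The stretches 5' and 3' of their 24 h peaks made up 10.1% and 4.64% of their span. The difference between the 5' and 3' shares was thus 14.4 ± 0.464 percentage points in gaining loci, -1.81 ± 1.14 in the first set and -0.398 ± 2.66 in the second (SD, n = 3 lists each). In all 5374 other shared loci with at least 9 peaks at 24 h it was 2.69 ± 0.142 (SD, n = 3). Of their added peaks, 8.42% ± 0.0798 lay 5' of all 2 h peaks, 85.9% ± 0.0872 between them and 5.73% ± 0.0863 3' of them (SD, n = 3 each). The 5' share was thus the larger in these loci too. With so few added peaks outside the 2 h peaks, a difference in percentage points is small. The 5' and 3' stretches of these loci made up 4.13% and 2.97% of their span. All 3 lists of 24 h had a larger difference in gaining loci than any list in these sets. These values come from the contrast that chose the loci and were not tested. The difference depended on how loci were drawn: it was 5.25 percentage points with a joining distance of 500 bases, 24.4 with strand ignored and 30.3 when only the stronger 50% of each list was used.

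The 3' end of the locus held a larger share of the 2 h peaks than of the added peaks. For the position of peaks of at most 1000 bases, each locus over 1000 bases was divided into 10 equal parts from 5' to 3' by the deposited strand. The last 10% of the span held 17.0% ± 1.09 of added peaks, against 35.6% ± 1.07 of the 24 h peaks that overlapped a 2 h peak and 33.8% ± 2.84 of the 2 h peaks (SD, n = 3 lists each). Parts 4 to 7 held 30.4% ± 1.02 of added peaks, against 22.5% ± 0.0788 of overlapped 24 h peaks and 22.2% ± 3.0 of 2 h peaks (SD, n = 3 each). The first 3 parts held 27.9% ± 0.380, 22.5% ± 1.57 and 24.3% ± 1.14 (SD, n = 3 each) of these kinds of peak. Added peaks were therefore spread more evenly along the locus than the peaks already present. Still, the last 10% held more of them than any other part. The lower share of added peaks there was not particular to gaining loci. In the other shared loci with at least 9 peaks at 24 h, the last 10% held 16.1% of added and 26.7% of overlapped peaks. In those with at most 9 peaks at 2 h it held 23.7% and 31.9%. In the loci with the opposite change it held 20.9% of 2 h peaks without a 24 h overlap and 24.9% of those with one. All 2 h peaks lay 3' of the middle of the locus in 70 gaining loci (27.2%) and 5' of it in 19 (7.39%). Among the 541 other shared loci with at most 9 peaks at 2 h these numbers were 35 (6.47%) and 14 (2.59%). Locus ends are set by peaks of either time, so stretches beyond the 2 h peaks can exist only where 24 h peaks lie.

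**Figure D3:**
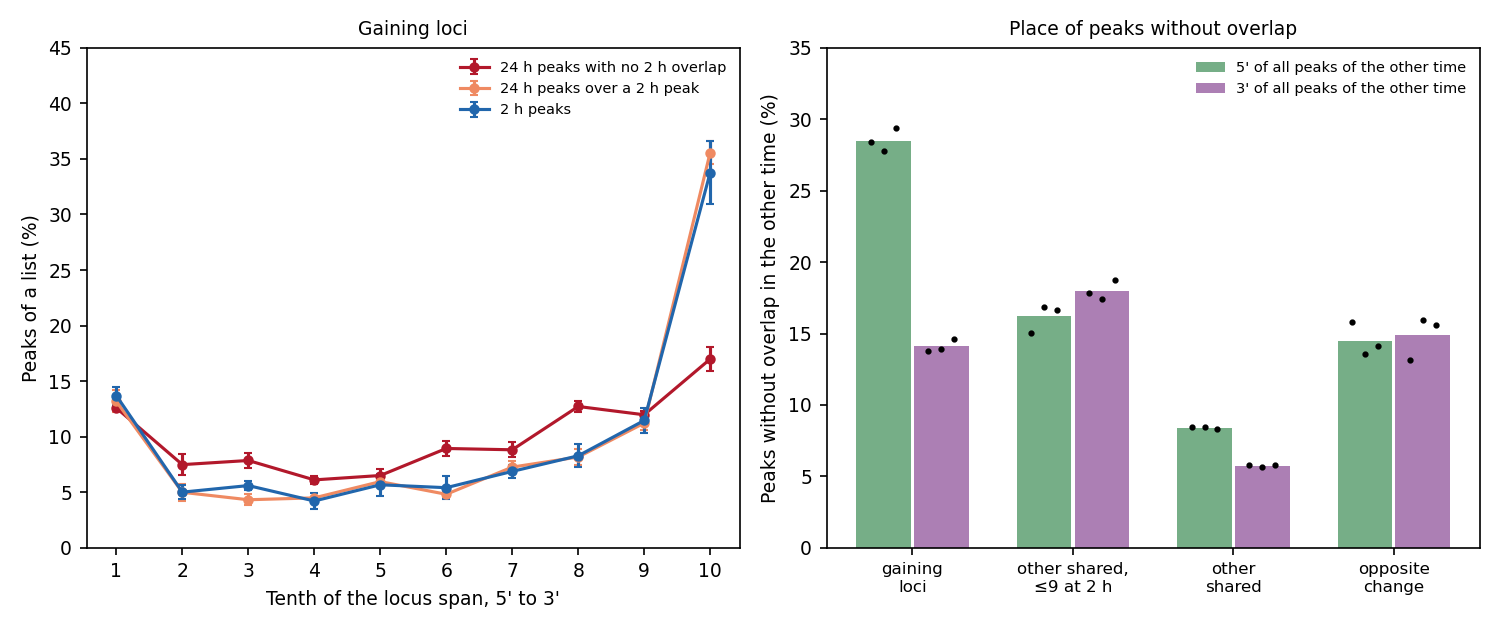
Left, percent of peaks in each of 10 equal parts of the locus span, 5' to 3', in gaining loci (points, mean of 3 lists; bars, SD), with 17.0% of added 24 h peaks and 33.8% of 2 h peaks in the last part. Right, percent of peaks without overlap in the other time that lay 5' or 3' of all peaks of that time, for 24 h peaks in the first 3 sets and for 2 h peaks in the loci with the opposite change (bars, mean; dots, lists), with 28.5% on the 5' side and 14.1% on the 3' side in gaining loci.

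The share of peaks in the last 10% of the span set gaining loci apart from other shared loci in opposite directions at the 2 times. In the E24h lists it was 23.1%, 22.1% and 24.5% in gaining loci, and in the E2h lists it was 32.1%, 32.2% and 37.1%. In other shared loci with at least 9 peaks at 24 h it averaged 24.4% ± 0.437 at 24 h and 25% ± 0.476 at 2 h (SD, n = 3 lists). Over all 6 lists gaining loci exceeded the others by 3.84 ± 5.67 percentage points (SD, n = 6), higher in 3 of 6 lists. Loci with few 2 h peaks also held more of them at the 3' end: in the other shared loci with at most 9 peaks at 2 h that part held 29.3% to 31.2% of 2 h peaks. Against that set the mean difference over the 6 lists was -1.32 percentage points. In the loci with the opposite change that part held 23.1% ± 0.776 of 24 h peaks and 22.8% ± 0.466 of 2 h peaks (SD, n = 3 each). The difference from all others was larger than 1.5 times this value with a joining distance of 500 bases, at 6.13 percentage points. The peaks compared are those of the lists that chose the loci, so this difference and those below in score and span are given as descriptions, with no p-value.

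Peaks of gaining loci ranked low within their lists at both times. The median within-list score percentile was 40.1, 39.3 and 37.1 in the E24h lists and 23.6, 23.9 and 21.4 in the E2h lists. In other shared loci with at least 9 peaks at 24 h it averaged 55.3 ± 0.400 at 24 h and 53.1 ± 0.469 at 2 h (SD, n = 3 lists), above the gaining loci in every list. The difference over the 6 lists was -23.3 ± 7.56 percentile points (SD, n = 6), lower in gaining loci in 6 of 6 lists. By time it was -16.4 at 24 h (-17.7 to -15.5 by list) and -30.1 at 2 h (-31.2 to -29.5 by list). The SD over 6 lists thus includes the gap between the times. Over the 6 lists, the comparison set also mattered. Against the 541 loci with at most 9 peaks at 2 h the mean difference was -20.7 percentile points. Low ranks were also found in the 237 loci with the opposite change, with median percentiles of 32.2 ± 0.910 at 24 h and 30.3 ± 0.624 at 2 h (SD, n = 3 lists), below the gaining loci in every 24 h list and above them in every 2 h list. Applied to the stronger 50% of each list, the rule chose 222 loci, whose difference was -9.77.

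Added peaks ranked lower than the 24 h peaks that overlapped a 2 h peak, and higher than the 2 h peaks of the same loci. The median percentile was 31.7 ± 1.79 for added peaks and 55.7 ± 2.76 for the overlapped 24 h peaks (SD, n = 3 lists each). For all 2 h peaks of gaining loci it was 23.0 ± 1.35 within their own lists (SD, n = 3). The lowest 25% of a list by score held 41.2% ± 2.36 of added and 18.9% ± 0.756 of overlapped peaks (SD, n = 3 each). In other shared loci added and overlapped peaks had medians of 34.2 ± 2.07 and 61.6 ± 0.313 (SD, n = 3 each), so added peaks ranked below overlapped ones there too. In the loci with the opposite change, the medians were 21.3 ± 0.763 for 2 h peaks without a 24 h overlap and 41.6 ± 0.860 for those with one (SD, n = 3 each), and 58.0% ± 2.61 of the peaks without one were in the lowest 25% of their list. At 2 h, 53.1% ± 1.28 of the peaks in gaining loci were in the lowest 25% of their list, and 21.5% ± 0.522 in other shared loci (SD, n = 3 each).

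The peaks that gaining loci held at both times also ranked higher at 24 h. Regions of overlapping peaks with a peak in all 6 lists numbered 202 in gaining loci, in 144 of the 257. The median percentile of their strongest peak was 81.1, 77.5 and 78.9 in the E24h lists and 58.7, 59.1 and 50.8 in the E2h lists, so the lists of the 2 times did not overlap. In the 14795 such regions of other shared loci the mean of the list medians was 77.6 at 24 h and 76.4 at 2 h. Every 24 h list ranked above every 2 h list in 93 of the 202 regions (46.0%), where 22.1% of all 17959 such regions did so, and every 24 h list ranked below in 27 (13.4%), where 20.7% of all did. For the strongest peak of each locus, all 24 h lists ranked above all 2 h lists in 175 of the 257 gaining loci (68.1%), against 28.0% of all shared loci, and below in 11 (4.28%), against 17.0%. The contrast is that of the rule, so these counts are a description, and ranks from lists of different lengths show no change in a peak's own strength.

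The same loci held few stretches in which 2 h peaks had no counterpart at 24 h. Regions with a peak in all 3 lists of 24 h and in none of 2 h numbered 268, which is 10.2% of the 2637 such regions in the genome, and 141 of the 257 gaining loci held at least 1. Regions with a peak in all 3 lists of 2 h and in none of 24 h numbered 6, which is 0.316% of 1901. The other 116 gaining loci had no region specific to 24 h by this measure. Of the 17959 regions with a peak in all 6 lists, 1.12% lay in gaining loci. These totals cover all loci, shared or not. A rule that asks for more peaks at 24 h favours regions of 24 h over those of 2 h, so these numbers are a description and were not tested.

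The 3 strongest regions specific to 24 h lay in loci close to the threshold, with ratios of 2, 2 and 2.25. Their peaks had an infinite score in each E24h list, at within-list percentiles of 99.4 in all 3, a rank shared by every infinite peak. They were 250 bases on the plus strand of NC_049736.1 from 2685366 to 2685615, 25 bases on the minus strand of NC_049714.1 from 8705748 to 8705772, and 250 bases on the minus strand of NC_049715.1 from 11588850 to 11589099. The first lay in a locus with 4, 7 and 5 peaks at 24 h, and 2, 4 and 2 at 2 h, whose strongest 2 h peaks ranked at 26.7, 38.2 and 15.2. The second lay in a locus with 4 peaks in each E24h list, and 1, 1 and 4 in the E2h lists, where E2h-3 tied with the 24 h lists. The third lay in a locus with 3, 2 and 4 peaks at 24 h, and 1, 2 and 1 at 2 h, where E24h-2 and E2h-2 tied.

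The longest stretches beyond the 2 h peaks rested in part on single peaks of great genomic span. On the minus strand of NC_049713.1 from 13327560 to 13387766, each E24h list had 3 peaks and each E2h list had 1. The 2 h peaks ended 59982 bases short of the 5' end, and the longest peak at 24 h spanned 45754 bases. On the minus strand of NC_049726.1 from 6679180 to 6709773 there were 18, 16 and 17 peaks at 24 h, and 3, 6 and 5 at 2 h, with 27144 bases 5' of the 2 h peaks and a longest 24 h span of 25669 bases.

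On the 3' side, the locus on NC_049712.1, plus strand, from 14286605 to 14432529 had 13, 9 and 13 peaks at 24 h, and 6, 4 and 6 at 2 h. Its 2 h peaks all lay near the 5' end, from 14286605 to 14287747, and 144782 bases followed, with a longest 24 h span of 80245 bases. On the plus strand of NC_049734.1 from 9709508 to 9794995 there were 3, 5 and 3 peaks at 24 h, and 2, 1 and 2 at 2 h, with 85138 bases 3' of the 2 h peaks and a 24 h span of 84588 bases. The minus-strand locus of NC_049713.1 from 16626866 to 16662670 had 13, 17 and 15 peaks at 24 h, and 6, 5 and 3 at 2 h, and 26 of its 27 added peaks lay in the 30386 bases 3' of all 2 h peaks. Long spans can include introns and were not read as lengths of transcript.

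Short peaks made up most of the added ones. Of the added peaks 35.2% ± 1.79 spanned 25 bases, 15.8% ± 2.15 spanned 50 and 25.1% ± 3.66 spanned 75 (SD, n = 3 lists each). Of the 24 h peaks that overlapped a 2 h peak, 19.2% ± 0.707 spanned 25 bases, 13.8% ± 1.63 spanned 50 and 22.3% ± 1.48 spanned 75 (SD, n = 3 each). Spans of 76 to 200 bases made up 10.6% ± 0.415 of added and 23.1% ± 1.21 of overlapped peaks, and spans over 1000 bases 3.60% ± 0.608 and 5.04% ± 0.569 (SD, n = 3 each). In other shared loci the shortest class was a larger part of added peaks still, with 51.1% ± 2.2 at 25 bases (SD, n = 3).

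Peaks of exactly 75 bases were a larger share in gaining loci than in other shared loci at both times, and a larger share still in the loci with the opposite change at 24 h. They were 26.4%, 25.2% and 20.9% of the peaks of gaining loci in the E24h lists, and 19.7%, 19.8% and 17.3% in the E2h lists. In other shared loci with at least 9 peaks at 24 h they were 20.7% ± 1.32 at 24 h and 16.1% ± 0.216 at 2 h (SD, n = 3 lists). Over the 6 lists gaining loci exceeded the others by 3.17 ± 1.43 percentage points (SD, n = 6), higher in 6 of 6 lists. In the loci with the opposite change they were 30.5% ± 3.59 of 24 h peaks and 19.3% ± 0.376 of 2 h peaks (SD, n = 3 each), so the trait was not particular to gaining loci. Among the stronger 50% of peaks the difference from other shared loci was 0.331 percentage points. Without 75-base peaks the rule chose 190 loci.

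**Figure D4:**
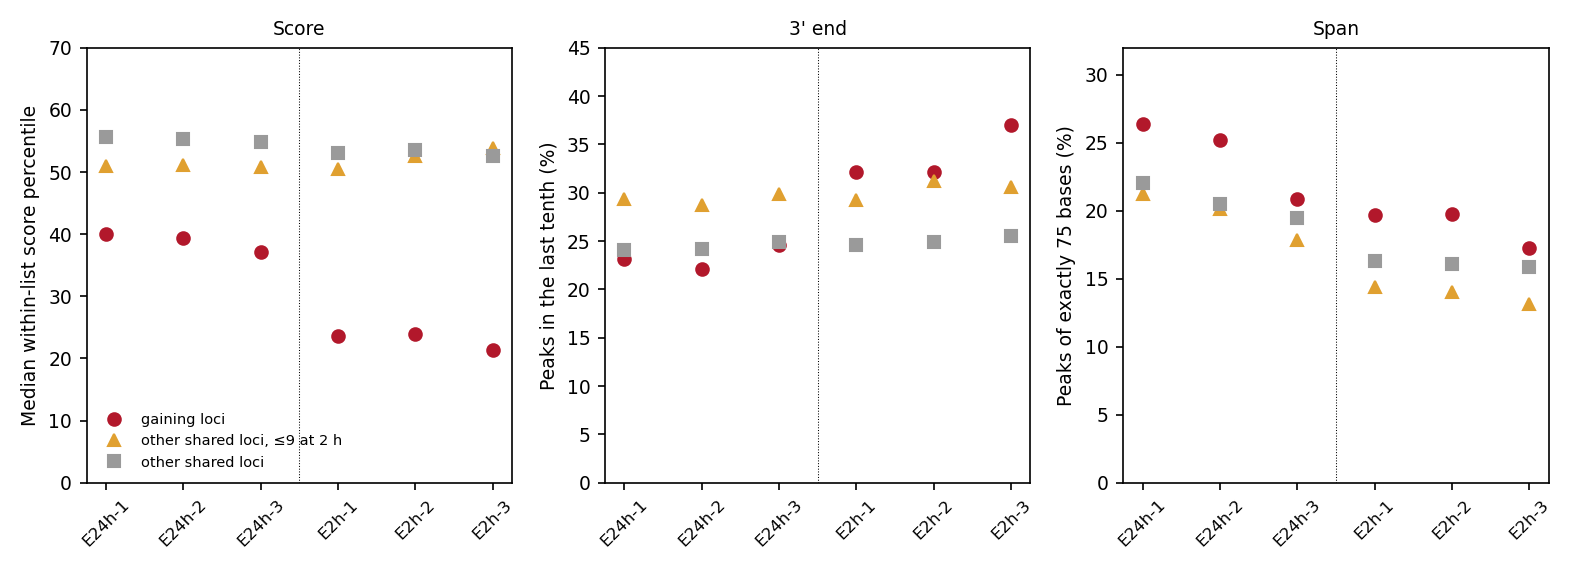
For each list, the median within-list score percentile, the percent of peaks in the last 10% of the locus span and the percent of peaks of exactly 75 bases, in gaining loci (red circles), in the other shared loci with at most 9 peaks at 2 h (yellow triangles) and in all other shared loci with at least 9 peaks at 24 h (grey squares). Of these 3 sets, gaining loci have the lowest score percentile and the highest share of 75-base peaks in every list, and the share in the last 10% reaches 37.1% in E2h-3.

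Gaining loci were spread over the whole set of large sequences. They lay on 39 sequences, 113 (44.0%) on the plus and 144 (56.0%) on the minus strand, and all shared loci had 4405 (49.2%) on the plus and 4540 (50.8%) on the minus strand. None lay on the mitochondrial sequence, which held 3 shared loci. Each of the 31 sequences with at least 100 shared loci held at least 2, and 9 of the 257 lay on smaller sequences. Over these 31 sequences gaining loci were 2.87% of shared loci. The highest share was on NC_049725.1, with 17 of 326 (5.21%, exact 95% binomial interval 3.07% to 8.22%), and this was the 1 sequence whose interval left out the overall share. With 31 intervals read, counting error alone can place the overall share outside such an interval on a sequence or more. NC_049724.1 followed with 10 of 202 (4.95%, 2.40% to 8.92%) and NC_049731.1 with 10 of 215 (4.65%, 2.25% to 8.39%). The lowest shares were on NC_049719.1, with 3 of 237 (1.27%, 0.262% to 3.65%), and NC_049723.1, with 3 of 196 (1.53%, 0.317% to 4.41%). The intervals cover counting error only, and neighbouring loci are not independent.

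**Figure D5:**
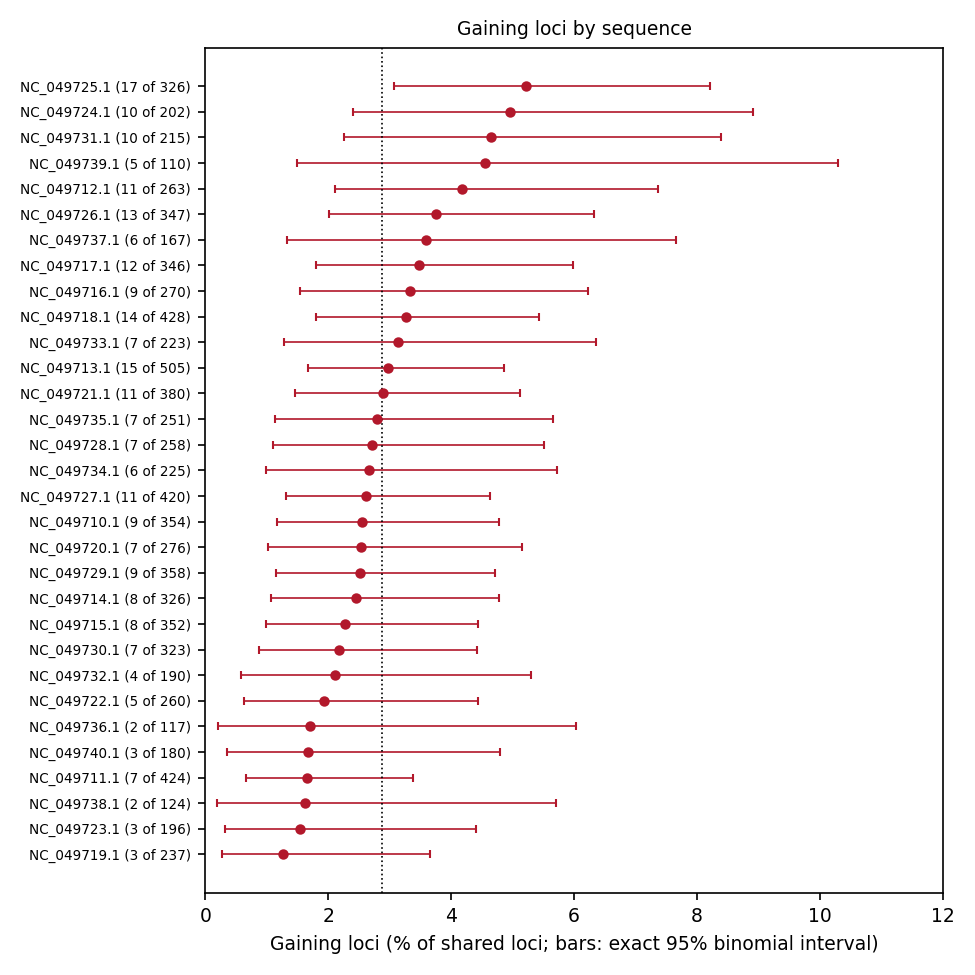
Gaining loci as a percent of shared loci on each of the 31 sequences with at least 100 shared loci (points; bars, exact 95% binomial interval), with the number of gaining and shared loci in each label. The dotted line is the overall share of 2.87%, which lies inside the interval of every sequence but NC_049725.1.

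Some gaining loci had a neighbour with peaks only at 24 h. A locus with peaks in all 3 lists of 24 h and no 2 h list lay less than 10000 bases away on the same strand for 16 gaining loci (6.23%), on the 5' side in 12 and on the 3' side in 4. For other shared loci with at least 9 peaks at 24 h this held for 133 of 5374 (2.47%), on the 5' side in 68 and on the 3' side in 67. For the loci with the opposite change it held for 2 of 237 (0.844%). Neighbours with peaks only at 24 h come from the contrast that chose the loci, so these shares are a description and were not tested. Another gaining locus lay that near for 4 gaining loci (1.56%), and a gaining locus lay that near for 78 of the 5374 other shared loci (1.45%). Such neighbours merge when peaks up to 10000 bases apart are joined, and the rule then chose 242 loci.

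Gaining loci had a longer median span than the others, a difference that was not tested. Their span had a median of 6006 bases, with quartiles of 3528 and 10350, and the median of other shared loci with at least 9 peaks at 24 h was 5065 bases. The 2 sets had the same median 24 h total of 18 peaks, while the median 2 h total was 6 in gaining loci and 19 in the others. The loci with the opposite change had a median span of 3557 bases, with a median total of 7 peaks at 24 h and 15 at 2 h.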

How the data were processed

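m6A capture was profiled in 3 samples of whole embryos at 24 h and 3 at 2 h after oviposition, each with an input that was not analysed here. The submitters' processing notes name HISAT2 2.1.0, Bowtie2 2.2.5, fastp 0.20.0 and HOMER. The sources used here name neither the peak caller and its threshold nor the genome build. The deposited lists were made per sample and give sequence, start, end, name, score and strand. Each peak's score was set by the authors on a scale that is not stated, and infinite scores were ranked highest. No read depth is given in the lists.

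The gaining loci, the comparison sets and the lists of loci named were chosen with earlier results of these data known. Loci were named by rule: the 6 largest differences, the 6 highest ratios, the 3 longest stretches 5' and 3 longest 3' of all 2 h peaks with 24 h peaks in all 3 lists, and the 3 strongest regions specific to 24 h. The locus without added peaks was named after its values were seen. Position used midpoints of peaks of at most 1000 bases. Gaining and other shared loci were compared in score, position and span over 6 lists. Two-sided exact sign-flip permutation tests with Benjamini-Hochberg adjustment were planned and computed, but the same lists chose the loci, so their p-values are not given as results. The code was run on simulated lists whose gaining loci had 2 h peaks only towards the 3' end. That run checks the code alone, because its outcome was built in. Alternatives covered peak strength, span, joining distance, strand, thresholds, comparison set, a replicate block and each list left out. Values were computed with scipy 1.17.1, numpy 2.4.6 and pandas 2.3.3 under Python 3.11.15, and plotted with matplotlib 3.10.9.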

Additional observations from a re-analysis of the deposited data

Results flagged for a closer look

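The share of peaks in the last 10% of the locus span differed from that of other shared loci in opposite directions at the 2 times. The mean difference was -1.13 percentage points at 24 h, below the others in 3 of 3 lists, and 8.80 percentage points at 2 h, above the others in 3 of 3 lists. The difference between the times was not tested, because the 24 h and 2 h peaks chose the loci.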

How the results depend on the processing

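The number of gaining loci, 257, was 608 with a ratio of at least 1.5, 94 with a ratio of at least 3, 159 with a 24 h total of at least 15, and 273 to 372 with 1 list left out; under the 9 other alternatives run it stayed within 1.5 times. The excess of the 5' over the 3' share of added peaks, 14.4 percentage points, kept its sign in every alternative run. It was 30.3 in the stronger 50% of each list, 20.7 at equal list length, 17.5 with spans of at most 1000 bases, 15.3 without 75-base peaks, 5.25 and 20.7 with joining distances of 500 and 10000 bases, 24.4 with strand ignored, and 13.7 to 19.0 with 1 list left out. The lower score percentile, -23.3, was -9.77 in the stronger 50% of each list, and the excess of 75-base peaks, 3.17, was 0.331. The difference in the last 10% of the span, 3.84, was 4.54 without 75-base peaks, 6.13 with a joining distance of 500 bases and 4.48 with strand ignored, and turned to -1.32 against loci with few 2 h peaks, a set chosen after the data were seen. With 1 list left out these differences were -25.1 to -21.3, 2.47 to 3.81 and 2.36 to 6.38. The cause of these changes was not tested.

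With the replicate number as a block, the mean differences are the same by construction (-23.3, 3.84 and 3.17), and 3 numbers cannot give a p below 0.25 by exact sign flips. Same-numbered lists share only a number in the labels: their deviations in peaks per shared locus correlated at 0.0120, 0.0237 and 0.0363, and every list correlated best with its own number. The 75-base difference has no value without 75-base peaks. The lists give no depth, so weak peaks that were missed cannot be told from absent ones.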
